A study of Mus musculus with 23 samples.

Results

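A set of 9 genes of the choroid plexus epithelium was followed through single-cell RNA sequencing of mouse brain: Ttr, Kl, Folr1, Enpp2, Htr2c, Prlr, Slc4a5, Clic6 and Lrp2. They were chosen by name, as 9 of the 32285 genes in the files, and were read in 4483 choroid plexus epithelial-like cells of 234024 kept cells, and in the other cell classes. Mice aged 3.3 months received 45 mg/kg of an Alexa 647-labelled antibody into the tail vein and were perfused 1 day later. ATV-TfR (DNP02_hIgG1_LALAPG_ATV35.23.2 - Alexa647), which binds the transferrin receptor, was given to TfR mu/hu KI mice. ATV-CD98hc (DNP02 LALAPG LLB2-10-8 monovalent - Alexa647), which binds the amino acid transporter heavy chain CD98hc, was given to CD98hc mu/hu KI mice. The control IgG (DNP02_hIgG1_LALAPG_Alexa647) was given to C57BL/6 mice, so antibody and genotype cannot be told apart. Each pool held the cells of 1 male and 1 female from brains without olfactory bulbs, cerebellum, pons and medulla, dissociated with actinomycin D and anisomycin in all groups. Live cells were sorted into a negative, a low, a medium and a high bin of Alexa 647 signal, with gates that split the positive ATV-TfR cells into 3 equal parts and were used for every antibody. There were 2 pools per antibody and 23 libraries were analysed here, 2 per antibody and bin except for the negative bin of control IgG, which had 1.

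The choroid plexus is a sheet of secretory epithelium over a fenestrated vascular core that makes most of the cerebrospinal fluid. Its cells load that fluid with carrier proteins, move ions and water across the sheet, and carry hormone receptors and uptake receptors on both faces. Ttr (ENSMUSG00000061808) encodes transthyretin, the carrier of thyroxine and of retinol-binding protein, and is the classic marker of this epithelium. Enpp2 (ENSMUSG00000022425, GRCm38 chromosome 15, 54838901 to 54952892, minus strand) encodes autotaxin, the secreted enzyme that makes lysophosphatidic acid. Kl (ENSMUSG00000058488, chromosome 5, 150952607 to 150993817, plus strand) encodes klotho, a co-receptor of fibroblast growth factor 23 that is also shed into the fluid. Folr1 (ENSMUSG00000001827, chromosome 7, 101858331 to 101870788, minus strand) encodes the folate receptor alpha that takes folate across the epithelium. Htr2c (ENSMUSG00000041380, chromosome X, 146962513 to 147197277, plus strand) encodes the serotonin receptor 2C. Prlr (ENSMUSG00000005268, chromosome 15, 10177238 to 10349180, plus strand) encodes the prolactin receptor. Lrp2 (ENSMUSG00000027070, chromosome 2, 69424340 to 69586065, minus strand) encodes megalin, an endocytic receptor of the LDL receptor family. Slc4a5 (ENSMUSG00000068323, chromosome 6, 83219828 to 83304945, plus strand) encodes a sodium bicarbonate cotransporter of the apical membrane, and Clic6 (ENSMUSG00000022949, chromosome 16, 92485736 to 92541243, plus strand) an intracellular chloride channel protein.

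In the results that follow, 3 members, Htr2c, Slc4a5 and Prlr, were called higher in the high bin of both ATV antibodies. For this reason the 250 bases before a start site of each are shown. They are given 5′ to 3′ on the coding strand, from the RefSeq promoter table (GRCm38.p6), in lower case because no part is singled out.
Htr2c, chrX:146962263-146962512: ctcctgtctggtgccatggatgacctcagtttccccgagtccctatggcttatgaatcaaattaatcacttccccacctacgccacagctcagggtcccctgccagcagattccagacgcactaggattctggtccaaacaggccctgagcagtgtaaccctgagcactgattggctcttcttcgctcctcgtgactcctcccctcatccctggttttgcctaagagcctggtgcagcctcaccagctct
Slc4a5, chr6:83237125-83237374: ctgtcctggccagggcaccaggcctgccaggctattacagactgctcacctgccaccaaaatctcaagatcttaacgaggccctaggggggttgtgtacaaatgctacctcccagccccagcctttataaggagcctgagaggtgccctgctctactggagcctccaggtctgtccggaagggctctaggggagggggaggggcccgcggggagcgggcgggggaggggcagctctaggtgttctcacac
Prlr, first of 3 RefSeq starts, chr15:10176988-10177237: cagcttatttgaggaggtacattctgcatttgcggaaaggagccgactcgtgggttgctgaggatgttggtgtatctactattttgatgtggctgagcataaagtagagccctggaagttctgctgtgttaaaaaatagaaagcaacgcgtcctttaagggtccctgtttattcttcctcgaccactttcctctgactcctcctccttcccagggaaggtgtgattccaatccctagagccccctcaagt
The Slc4a5 start of this table lies inside the gene as the annotation draws it. The table held 7 promoters for 5 of the members (Lrp2, Kl, Slc4a5, Htr2c and 3 starts of Prlr). The motif TAATCC, the core bound by OTX-type homeodomain factors, was searched on both strands of the 300 bases from 250 before to 50 after the start. It was found in 0 of these 7 and in 2320 of all 32851 promoters of the table, or 7.1%, so these letters do not lie in these windows.

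The 23 libraries held 1861238 to 90307818 UMIs, and choroid plexus cells made up 0.340% to 25.8% of their kept cells with the highest in the medium bin of control IgG and the lowest in the high bin of ATV-TfR. The class came from clusters built without the 9 members and named by 12 other markers (such as Kcnj13, Otx2 and Kcne2). It consisted of 2 clusters: cluster 1 with 3747 cells had 10 of the 12 markers and cluster 2 with 736 cells had all 12. Each library contributed 29 to 501 choroid plexus cells and 308675 to 3845202 of their UMIs. Of the 4483 cells, 242 had a barcode that also occurred in another library, and 2 of these shared it with another choroid plexus cell.

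Of the 9 genes, 8 were read in most of these cells, and Lrp2 in almost none. Levels are the gene's share of the summed UMIs of the cells, in CPM (1 CPM is 0.0001%), given as mean ± SD over the 23 libraries. Among the secreted proteins, Ttr reached 191500 ± 25380 CPM and had a UMI in 99.96% of cells, and Enpp2 reached 14300 ± 3251 CPM with a UMI in 99.5%. Kl stood at 960.3 ± 168 CPM (95.2% of cells). Among the receptors, Folr1 stood at 738 ± 125 CPM (89.3%), Prlr at 804.6 ± 332 CPM (85.5%) and Htr2c at 1238 ± 948 CPM (67.4%). The transporter Slc4a5 stood at 185.5 ± 77.4 CPM (56.0%) and Clic6 at 635.4 ± 89.3 CPM (93.0%). The spread over libraries was thus smallest, relative to the mean, in Ttr and Clic6 and largest in Htr2c, whose lowest library had 204.2 CPM and whose highest had 3341 CPM. Lrp2 had 4 UMIs in 4 of the 4483 cells (0.0892%), or 0.0967 CPM (95% exact Poisson interval 0.0263 to 0.247, counting error only).

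In single cells the genes were mostly read together. Of the 9 members, 8 had a UMI in 1825 cells (40.7%), and 7 in 1187 cells (26.5%). Fewer than 4 members were read in 4, 16 and 62 cells (1, 2 and 3 members). Cells without a UMI of a given member are not shown to lack it, since the median depth of these cells was 5094 to 15920 UMIs over the libraries. After thinning each cell to 1000 UMIs, Ttr was still read in 99.96% of cells and Enpp2 in 96.03%, Htr2c in 27.8% and Slc4a5 in 13.2%.

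In 6 members the level was higher in choroid plexus cluster 2 than in cluster 1 in every library that held enough of both. Of 6200 genes with a mean of at least 20 CPM in choroid plexus cells, 22.7% were higher and 22.0% lower in cluster 2 in all 12 such libraries. Htr2c stood at 176 CPM in cluster 1 and 3271 CPM in cluster 2, a ratio of 18.6, and was higher in cluster 2 in 12 of the 12 libraries with at least 20 cells of each (ratios 6.95 to 20.5). Slc4a5 stood at 104.4 and 334.9 CPM (ratio 3.21) and Prlr at 468.4 and 1468 CPM (ratio 3.13), again higher in 12 of 12. Smaller ratios in the same direction, in 12 of 12 libraries, were found for Enpp2 (11420 and 20400 CPM, ratio 1.79), Kl (861.8 and 1203 CPM, ratio 1.396) and Ttr (171200 and 231700 CPM, ratio 1.35). The other two detected members had no one direction: Folr1 was higher in cluster 2 in 7 of 12 libraries (ratio 1.15) and Clic6 in 4 of 12 (ratio 1.01). These ratios are descriptions, since the clusters were cut from the other genes of the same cells. Cluster 2 also had more UMIs per cell (median 14370 against 7003), more genes (4174 against 2383), a higher mitochondrial share (4.68% against 2.98%), more Malat1 (6615 against 3483 CPM), more Xist (229 against 51.5 CPM) and less Krt18 (224.8 against 502.7 CPM). A UMI of at least 1 of the 12 endothelial markers was present in 84.4% of its cells and 46.2% of those of cluster 1. The part of these differences in the members' ratios was not tested.

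**Figure D1:**
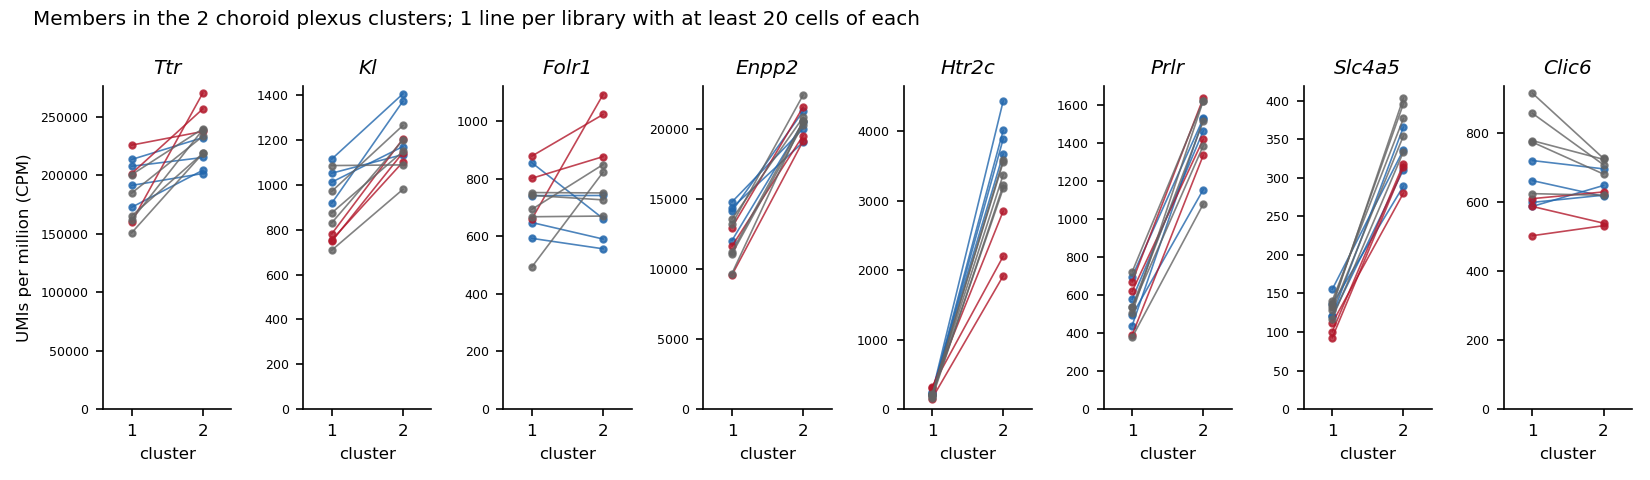
Level of 8 members (CPM, linear axes from 0) in choroid plexus clusters 1 and 2. Each line joins 1 library with at least 20 cells in each cluster, red for ATV-TfR, blue for ATV-CD98hc and grey for control IgG; Htr2c, Slc4a5, Prlr, Enpp2, Kl and Ttr were higher in cluster 2 in 12 of 12 libraries, Clic6 in 4.

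The bins ask how these genes varied with the amount of antibody on or in the cell. In the high bin of both ATV antibodies, choroid plexus cells had more Htr2c, Prlr and Slc4a5 than in the negative bin, and for ATV-CD98hc Enpp2 and Kl were called higher too; the change was not called different between the antibodies for any member. Under ATV-TfR, 3 of the 8 members tested were called higher and 0 lower, where 23.2% of all 12610 genes tested were called, 10.1% higher and 13.2% lower. Under ATV-CD98hc, 5 were called higher and 0 lower, where 30.6% of all genes were called, 12.3% higher and 18.3% lower. The median log2 change of the 8 was 0.26 for ATV-TfR and 0.61 for ATV-CD98hc, against -0.01 and 0.02 over all genes tested. A gene was called at an adjusted p under 0.05 in edgeR's quasi-likelihood test over all genes.

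Htr2c changed most. Under ATV-TfR it stood at 654.5 and 554 CPM in the 2 negative libraries and at 1623 and 2385 CPM in the 2 high libraries. Under ATV-CD98hc it stood at 862.9 and 670.8 CPM in the negative libraries and at 3341 and 2992 CPM in the high ones. The log2 change was 1.61 (SE 0.23, adjusted p = 1.5e-05) for ATV-TfR and 1.80 (SE 0.23, adjusted p = 7.2e-07) for ATV-CD98hc.

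Prlr, the prolactin receptor, stood at 599.7 and 913.1 CPM (negative) against 1176 and 1462 CPM (high) under ATV-TfR, and at 573.2 and 517.4 against 1245 and 1366 CPM under ATV-CD98hc. Its log2 change was 0.69 (SE 0.19, adjusted p = 0.010) and 1.02 (SE 0.20, adjusted p = 2.2e-04). For Slc4a5, the bicarbonate cotransporter, the negative libraries held 135.5 and 155.5 CPM and the high libraries 246.2 and 249.5 CPM under ATV-TfR, with a log2 change of 0.66 (SE 0.18, adjusted p = 0.0075). Under ATV-CD98hc Slc4a5 went from 121.2 and 129.3 to 302.4 and 300.4 CPM, a log2 change of 1.05 (SE 0.19, adjusted p = 1.0e-04). The ATV-TfR calls of Prlr and Slc4a5 rested on 2 pools: without replicate 1 the log2 change was 0.53 for both, with adjusted p of 0.22 and 0.19.

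Among the secreted members, Enpp2 stood at 10430 and 9803 CPM in the negative and 18260 and 19830 CPM in the high libraries of ATV-CD98hc, a log2 change of 0.68 (SE 0.14, adjusted p = 4.0e-04). In the ATV-TfR libraries the values were 12620 and 14290 CPM against 17100 and 19980 CPM, and the log2 change of 0.35 was not called (adjusted p = 0.072). It was called by DESeq2 (0.40), with RLE factors (0.40), the stricter filter on counts (0.49), the marker gate (0.46) and at most 5% mitochondrial UMIs (0.45), and in cluster 1 alone it was 0.03. Kl stood at 828 and 685.8 CPM against 1255 and 1348 CPM under ATV-CD98hc, a log2 change of 0.54 (SE 0.14, adjusted p = 0.0043), which was lost without replicate 2 (0.33, adjusted p = 0.22) and with at least 50 cells per library (0.42, adjusted p = 0.078). Kl under ATV-TfR had a log2 change of 0.10 (adjusted p = 0.66). Ttr, at 169600 to 240000 CPM in these 8 libraries, had log2 changes of 0.18 and 0.06, neither called. Its mean CPM, without that scaling, went from 194500 to 237700 (ATV-TfR) and from 174600 to 213800 (ATV-CD98hc). Folr1 (-0.14 and -0.07) and Clic6 (-0.16 and 0.01) were not called either, and their 95% intervals reached from -0.48 to 0.28 and from -0.45 to 0.30.

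**Figure D2:**
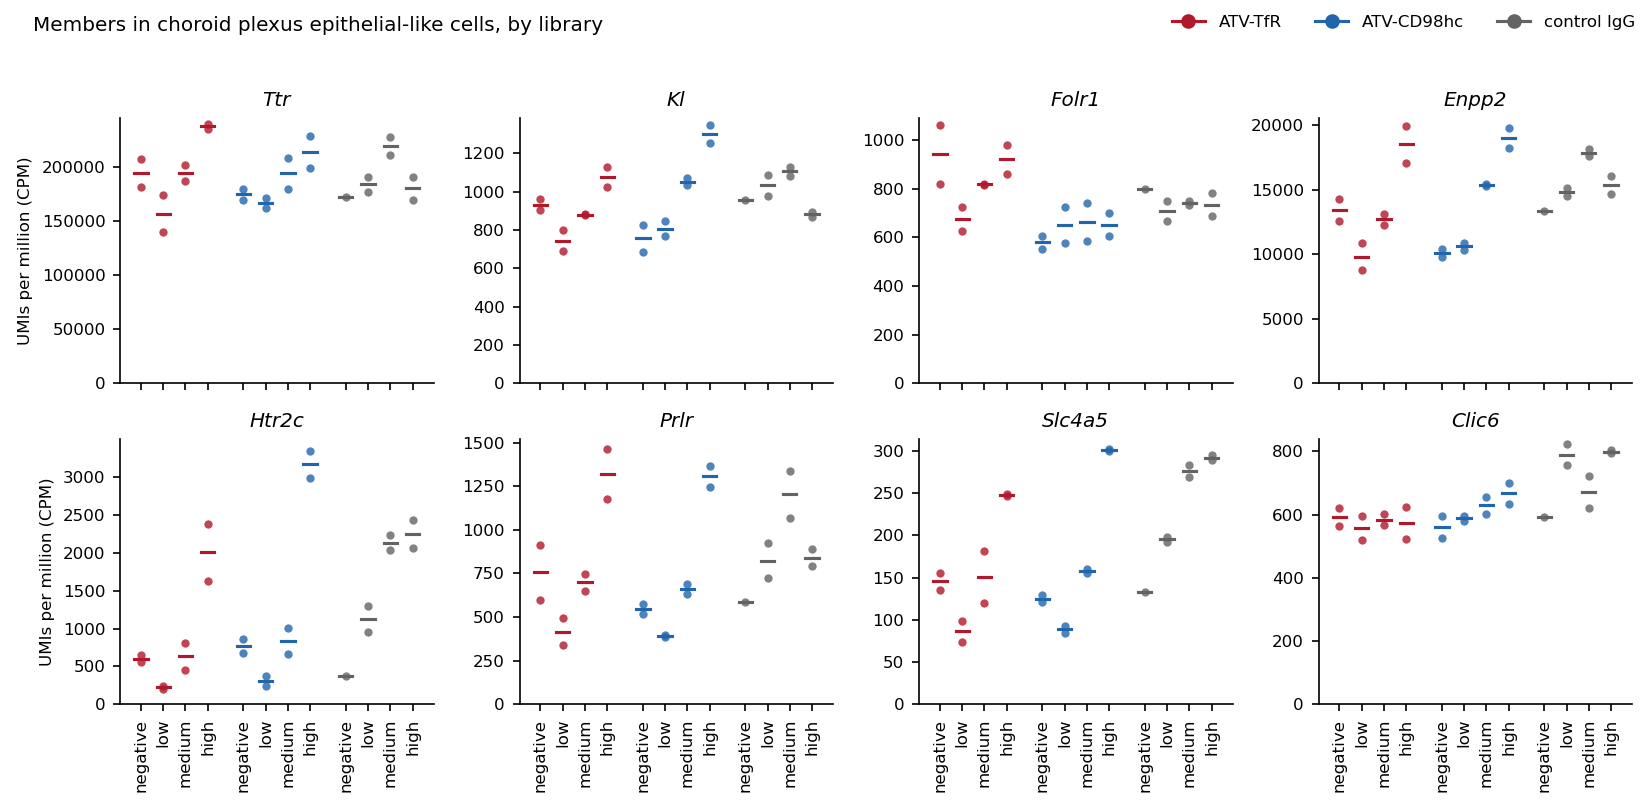
Level of 8 members in choroid plexus epithelial-like cells (CPM, linear axes from 0) in each of 23 libraries, by Alexa 647 bin; points are libraries, short bars group means, red for ATV-TfR, blue for ATV-CD98hc and grey for control IgG. Htr2c dipped in the low bins of both ATV antibodies and peaked in their high bins, while Clic6 means under the ATV antibodies stayed between 556.8 and 667.9.

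The high and negative bins differed in more than the members. The median UMIs of a choroid plexus cell were 5879 to 6200.5 (negative) and 13939 to 15920 (high) under ATV-TfR, and 5094 to 6180 against 13244 to 15090 under ATV-CD98hc. The median mitochondrial share was 2.76% to 2.96% against 2.86% to 3.64%, and 2.08% to 3.31% against 4.15% to 4.95%. Cluster 2 held 4.27% and 5.84% of choroid plexus cells in the negative bins of ATV-TfR and 49.2% and 62.7% in its high bins; under ATV-CD98hc the shares were 6.67% and 7.09% against 63.0% and 71.6%. The summed level of 12 endothelial markers in choroid plexus cells was 78.4 to 81.0 CPM in the negative and 1592 to 3408 CPM in the high bin of ATV-TfR, and 48.1 to 68.8 against 1955 to 2228 CPM under ATV-CD98hc. All 12 of these markers were called higher in both contrasts. The 10 astrocyte markers went the other way, from 228 to 459 CPM down to 91.5 to 97.7 CPM under ATV-TfR and from 650 to 654 CPM down to 53.5 to 72.3 CPM under ATV-CD98hc; 9 of 10 were called lower in each contrast and 1 higher under ATV-TfR. Neuron markers, of which 3 of 8 were tested, summed to 12.0 to 19.8 CPM (negative) and 54.5 to 58.6 CPM (high) under ATV-TfR, with all 3 called higher, and to 26.7 to 54.1 against 50.5 to 62.9 CPM under ATV-CD98hc, with 0 called. Oligodendrocyte markers went from 81.0 to 144 CPM to 47.1 to 90.8 CPM under ATV-TfR (5 of 8 called lower and 1 higher) and from 316 to 381 down to 50.3 to 58.8 CPM under ATV-CD98hc (7 of 8 called lower). Under ATV-TfR pericyte markers went from 352 to 385 down to 159 to 183 CPM (3 of 7 called lower) and microglia markers from 162 to 199 down to 75.2 to 90.5 CPM (8 of 8 called lower). Under ATV-CD98hc the pericyte markers stood at 39.0 to 54.1 against 73.7 to 162 CPM (1 of 7 called higher) and the microglia markers at 75.2 to 88.3 against 99.3 to 113 CPM (1 of 8 called lower). The part of these markers in the changes of the members was not tested.

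**Figure D3:**
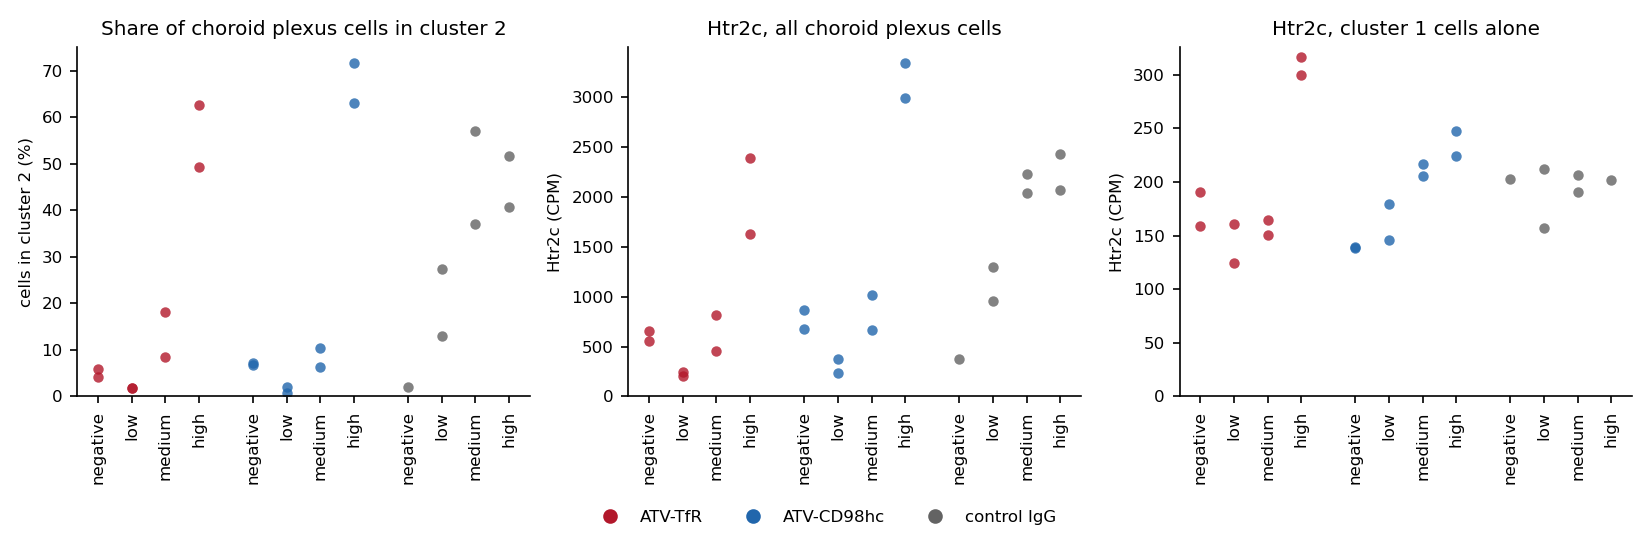
Share of choroid plexus cells in cluster 2 (percent), and Htr2c in all choroid plexus cells and in cluster 1 cells alone (CPM, linear axes from 0), by bin; each point is 1 library with at least 20 cells of that kind, red for ATV-TfR, blue for ATV-CD98hc and grey for control IgG. The cluster 2 share was at least 49.2% in the 4 high libraries of the ATV antibodies and at most 7.09% in their 4 negative libraries, and Htr2c in cluster 1 alone was highest in the 2 high libraries of ATV-TfR (299.3 and 316.2).

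Restricting the comparison to cluster 1 gave the changes in cells of 1 cluster. This fit was chosen after the mix of clusters was seen. Some changes were smaller there, and those of Enpp2, Kl and Ttr under ATV-CD98hc were larger than over all choroid plexus cells. Htr2c remained called for both antibodies, at less than its full size. In cluster 1 it stood at 158.5 and 190.7 CPM (negative) against 316.2 and 299.3 CPM (high) under ATV-TfR, and at 139.3 and 138.2 against 224.4 and 247.1 CPM under ATV-CD98hc, with log2 changes of 0.78 (SE 0.21, adjusted p = 0.023) and 0.75 (SE 0.22, adjusted p = 0.038). For ATV-TfR, 1 of 8 members was called, where 5.36% of genes in this cluster were called; Prlr (0.21) and Slc4a5 (0.04) were not. For ATV-CD98hc, 4 of 8 were called, where 6.32% were called: Enpp2 (log2 change 0.88, adjusted p = 0.0010), Htr2c, Kl (0.63, adjusted p = 0.025) and Ttr (0.51, adjusted p = 0.036). In cluster 1 Enpp2 stood at 8043 and 6139 CPM in the negative and 12020 and 14110 CPM in the high libraries of ATV-CD98hc. Folr1 and Clic6 were not called there but also averaged more in the high libraries. Folr1 stood at 577.8 and 479.8 against 647.9 and 855.5 CPM, and Clic6 at 628.8 and 516.3 against 718.9 and 586.2 CPM. Prlr and Slc4a5 each had a log2 change of 0.74 there and missed the threshold (adjusted p = 0.10 and 0.095). The 8 libraries held 22 to 145 cells of cluster 1, and all 12 endothelial markers were called higher within it as well.

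In the low bins of both ATV antibodies, Htr2c, Prlr and Slc4a5 averaged less than in the negative bin, while under ATV-CD98hc the medium-bin means of all tested members but Folr1 lay between the negative and the high bin. In the low bin of ATV-TfR, Htr2c fell to 204.2 and 245.2 CPM, Prlr was at 337.3 and 494.6 CPM, Slc4a5 at 73.98 and 98.61 CPM and Enpp2 at 8790 and 10850 CPM. All 4 were called lower than in the negative bin, where 4.83% of genes were called, with log2 changes of -1.48, -0.92, -0.80 and -0.51. In cells without endothelial UMIs none of the 4 was called, with log2 changes of -0.58 (Htr2c), -0.47 (Prlr), -0.51 (Slc4a5) and -0.38 (Enpp2). By the marker gate Slc4a5 (-0.58) and Enpp2 (-0.33) were not called, nor was Enpp2 under the stricter doublet rule (-0.43). Folr1 had a log2 change of -0.54 (adjusted p = 0.066), which was called with the pool as a block (adjusted p = 0.032). Over all alternatives, 19 member values of the low minus negative contrast of ATV-TfR lost a call and 7 gained one, not all of them listed here. Leaving out either ATV-TfR pool ended the calls of Prlr (adjusted p = 0.096 without replicate 1 and 0.055 without replicate 2) and Enpp2, and leaving out replicate 1 that of Slc4a5 (adjusted p = 0.26), but with any 1 pool left out the log2 changes stayed at -0.92 to -0.86 (Prlr), -0.55 to -0.43 (Enpp2) and -0.90 to -0.69 (Slc4a5). Beside these changes, the astrocyte markers in the choroid plexus cells went from 228 to 459 CPM up to 1716 to 1726 CPM in the low bin under ATV-TfR and from 650 to 654 up to 1880 to 2942 CPM under ATV-CD98hc, and the pericyte markers from 352 to 385 down to 36.8 to 38.8 CPM under ATV-TfR. The neuron markers stood at 9.43 to 13.5 CPM in the low bin of ATV-TfR, against 12.0 to 19.8 CPM in its negative bin, and at 6.50 to 9.05 against 26.7 to 54.1 CPM under ATV-CD98hc. Microglia markers went from 162 to 199 down to 68.2 to 72.4 CPM under ATV-TfR and from 75.2 to 88.3 up to 210 to 228 CPM under ATV-CD98hc. Oligodendrocyte markers went from 81.0 to 144 down to 25.5 to 33.0 CPM and from 316 to 381 down to 29.9 to 88.8 CPM. Endothelial markers stood at 81.0 to 125.5 CPM in the low bin of ATV-TfR and went from 48.1 to 68.8 up to 203 to 394 CPM under ATV-CD98hc. The median UMIs of a choroid plexus cell were 8182.5 and 8866 in the low and 6200.5 and 5879 in the negative bin of ATV-TfR. The median mitochondrial share was 2.20% and 2.29% against 2.76% and 2.96%. Under ATV-CD98hc the medians were 6831 and 5478.5 against 5094 and 6180 UMIs, and 3.30% and 3.07% against 3.31% and 2.08%. The part of these markers, of depth and of the mitochondrial share in the low-bin changes was not tested. Under ATV-CD98hc only Htr2c was called lower in the low bin (237.4 and 379.9 CPM, log2 change -1.34, 2.65% of genes called), and this was lost without replicate 1 (-0.84, adjusted p = 0.23) and turned direction in cells without endothelial UMIs (0.28, adjusted p = 0.69). Cluster 2 held 0.798% to 2.02% of choroid plexus cells in the 4 low libraries of the ATV antibodies. Within cluster 1 the low bin's log2 change of Htr2c was -0.34 (ATV-TfR) and 0.19 (ATV-CD98hc), and 0 of 8 members were called for either, where 3.4% and 1.73% of genes were. In the medium bin of ATV-TfR, 0 of 8 members were called, where 2.25% of genes were. For ATV-CD98hc, Enpp2 (15420 and 15330 CPM, log2 change 0.65, adjusted p = 0.0029) and Kl (1032 and 1069 CPM, 0.51, adjusted p = 0.027) were called higher in the medium bin, where 5.95% of genes were called. In cluster 1 alone, where 9.06% of genes were called, 5 of 8 members were, among them Enpp2 (1.09) and Kl (0.71), but the Kl call over all choroid plexus cells was lost when any 1 pool of any antibody was left out, with log2 changes of 0.42 to 0.62. With at least 50 cells per library neither Enpp2 (0.60, adjusted p = 0.061) nor Kl (0.38) was called. From the negative to the medium bin of ATV-CD98hc, endothelial markers went from 48.1 to 68.8 up to 1743 to 5512 CPM, pericyte markers from 39.0 to 54.1 up to 134.5 to 428 CPM, astrocyte markers from 650 to 654 down to 166 to 243 CPM and oligodendrocyte markers from 316 to 381 down to 44.6 to 117 CPM. The median mitochondrial share was 5.46% and 3.65% in these medium libraries against 3.31% and 2.08% in the negative ones, and the median UMIs 9177 and 6522 against 5094 and 6180. The part of these markers and values in the rise of Enpp2 and Kl was not tested.

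Under control IgG, Htr2c was higher in every positive bin than in the negative one. Htr2c stood at 374 CPM in its 1 negative library, at 1301 and 952.7 CPM in the low, 2231 and 2037 CPM in the medium and 2427 and 2068 CPM in the high libraries. The log2 difference from the 1 negative library was 1.57 (low), 2.45 (medium) and 2.38 (high). The spread of that arm cannot be measured, so calls against it rest on the spread of the other groups; on that assumption all 3 were called, where 5.4%, 14.4% and 9.13% of genes were. On the same assumption Slc4a5 was called in the medium (0.98) and high bin (0.94), and Prlr in the medium bin (0.97). The Slc4a5 call in the high bin was lost in cells without endothelial UMIs (0.40), where only 1 high library had at least 20 cells. The Prlr call was lost without replicate 1 (0.80), which leaves 1 medium library. Both are 1 library against 1. Cluster 2 held 2.08% of its choroid plexus cells, 13.1% and 27.4% in the low, 37.1% and 57.1% in the medium and 40.8% and 51.7% in the high libraries. In the choroid plexus cells, neuron markers summed to 15.9 CPM in the negative, 24.5 to 35.9 in the low, 42.1 to 61.9 in the medium and 60.0 to 81.0 CPM in the high libraries. Markers of 5 other types were lower in the positive libraries than in the negative one: endothelial 90.7 to 295 against 400 CPM, astrocyte 30.3 to 104 against 1528 CPM, pericyte 27.3 to 58.3 against 310 CPM, microglia 89.3 to 136 against 208 CPM and oligodendrocyte 3.24 to 15.5 against 98.8 CPM. Immature neuron markers were at 6.17 CPM in the negative and 21.8 to 100.4 CPM in the high libraries. Their part in the changes of the members was not tested. Within cluster 1, 0 of 8 members were called in any of the 3 contrasts of control IgG, the high bin resting there on 1 library with at least 20 such cells, where 6.32%, 3.95% and 1.01% of genes were called, and Htr2c had log2 changes of -0.12, 0.04 and -0.09.

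Comparing the same bin between antibodies leaves out the lone negative library of control IgG. In the low bins, Htr2c was 2.31 lower on the log2 scale under ATV-TfR than under control IgG and 1.88 lower under ATV-CD98hc (adjusted p = 5.5e-09 and 1.7e-07). Prlr (-0.96 and -1.07), Slc4a5 (-1.16 and -1.14), Enpp2 (-0.58 and -0.48) and Clic6 (-0.49 and -0.42) were called lower for both ATV antibodies too, and Kl (-0.46) for ATV-TfR. In the same sums the astrocyte markers stood at 1716 to 1726 CPM (ATV-TfR), 1880 to 2942 CPM (ATV-CD98hc) and 45.5 to 48.3 CPM (control IgG), and the neuron markers at 9.43 to 13.5, 6.50 to 9.05 and 24.5 to 35.9 CPM. Their part was not tested. In these contrasts 6 and 5 of 8 members were called, where 13.6% and 13.2% of genes were. In the medium bins Htr2c (-1.64 and -1.26), Slc4a5 (-0.76 and -0.70) and Prlr (-0.67 and -0.76) were called lower, 3 of 8 for each antibody, where 20.3% and 17.9% of genes were called. Within cluster 1 only Slc4a5 (-0.64 and -0.67) and Clic6 (-0.55 and -0.51) were still called lower in the low bins, 2 of 8 for each antibody, where 8.15% and 12.9% of genes were called, and 0 in the medium bins (3.78% and 5.61% of genes called) and high bins (2.06% and 0.428%). In the high bins of cluster 1, control IgG again had 1 library with enough cells. In the high bins Htr2c did not differ detectably from control IgG (log2 difference -0.02, 95% interval -0.46 to 0.41, for ATV-TfR and 0.45, 0.02 to 0.88, adjusted p = 0.30, for ATV-CD98hc). Called in the high bins were Ttr (0.54) and Prlr (0.80) for ATV-TfR, where 2.35% of genes were called, and Kl (0.52) for ATV-CD98hc, where 3.39% were. Other-type markers differed between the antibodies in these bins too, in the order ATV-TfR, ATV-CD98hc and control IgG. In the medium bins astrocyte markers stood at 1422 to 1521, 166 to 243 and 30.35 to 30.74 CPM, endothelial markers at 282 to 302, 1743 to 5512 and 105 to 112 CPM, and neuron markers at 19.1 to 28.0, 22.0 to 40.0 and 42.1 to 61.9 CPM. In the high bins endothelial markers stood at 1592 to 3408, 1955 to 2228 and 90.7 to 126.8 CPM, pericyte markers at 159 to 183, 73.7 to 162 and 27.3 to 58.3 CPM, and oligodendrocyte markers at 47.1 to 90.8, 50.3 to 58.8 and 3.24 to 6.82 CPM. Their part in the calls was not tested.

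Over all choroid plexus cells, no member was called between the 2 ATV antibodies in the main fit. In the difference of their high-minus-negative changes, 0 of 8 members were called, where 1 of 12610 genes (0.00793%) was called and 959 had an unadjusted p under 0.05. The log2 difference was -0.18 for Htr2c (95% interval -0.81 to 0.44), -0.33 for Prlr (-0.88 to 0.21), -0.38 for Slc4a5 (-0.90 to 0.14) and -0.44 for Kl (-0.83 to -0.05). Intervals of this width leave differences of nearly 1 log2 unit undetectable. In the negative bins, where 0.0476% of genes were called, the largest member difference was that of Folr1, at 818.9 and 1064 CPM for ATV-TfR and 607.1 and 553.5 CPM for ATV-CD98hc (log2 difference 0.76, adjusted p = 0.089). Over the alternatives tried, 7 member values of this negative-bin comparison gained a call and 137 kept direction and side of the threshold. Within cluster 1, Enpp2 was higher under ATV-TfR than under ATV-CD98hc in the negative bins (10770 and 12260 against 8043 and 6139 CPM, log2 difference 0.77, adjusted p = 0.043, 0.169% of genes called). It was lower in the medium bins (9560 and 10850 against 14770 and 14350 CPM, log2 difference -0.53, adjusted p = 0.028, 10.9% of genes called). Within cluster 2, Folr1 was higher under ATV-TfR in the medium bins (1.01, adjusted p = 0.025, 1.13% called). That call rests on 1 ATV-TfR library of 26 such cells, at 1092 CPM against 741.7 and 556.6 CPM, which was assumed to vary like the other groups; the other had 15 cells, under the minimum of 20. In this comparison antibody, genotype and pool cannot be told apart.

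Other genes of the epithelium, listed by function, gave the following counts in the high-minus-negative contrasts, to be read against the 10.1% higher and 13.2% lower of all genes under ATV-TfR and the 12.3% and 18.3% under ATV-CD98hc. Of 16 genes of fluid secretion and ion transport, 4 were called higher and 2 lower under ATV-TfR, and 9 and 2 under ATV-CD98hc. Slc4a10, a sodium-coupled bicarbonate transporter, rose by log2 changes of 1.10 and 1.49, and Slc12a2, the sodium-potassium-chloride cotransporter NKCC1, by 1.00 and 0.95. Car2, carbonic anhydrase 2, was lower (-0.66 and -0.97), as was Slc4a4 (-3.49 and -4.85), which is also one of the astrocyte markers. Of 11 tested secreted proteins, 0 were called under ATV-TfR, while Igf2 (0.67) and F5 (0.43) were called higher under ATV-CD98hc. Of 10 tested other receptors, 4 and 9 were called higher and 0 lower. Igf1r, the IGF1 receptor, had log2 changes of 1.97 and 1.94, and Lrp8, the reelin receptor ApoER2, 1.47 and 1.80. The rise of endothelial markers given above lay in the same sums as all of these lists. Its part in the list changes, here and below, was not tested.

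None of 4 genes of folate carriage was called under either antibody, with median log2 changes of 0.06 and 0.54. Of 5 tested megalin partners, 0 were called under ATV-TfR and Ankra2 was lower (-0.91, adjusted p = 0.046) under ATV-CD98hc. Among 7 transcription factors 3 were higher and 2 lower, then 4 and 1: Rfx3 (0.97 and 1.34) and Lmx1a (1.01 and 1.38) rose and Msx1 (-0.63 and -0.69) fell. Of 8 junction genes, 4 were higher under each, where 10.1% and 12.3% of all genes were, with Cldn1 at 1.18 and 1.88. All 3 genes of the bound receptors and their light chain were higher: Tfrc (2.88 and 2.82), Slc3a2 (0.76 and 1.01) and Slc7a5 (3.52 and 6.57), beside the rise of endothelial markers given above. Of 5 tested immediate early genes, Ier2 (2.93) and Jun (1.82) were higher under ATV-TfR and 0 were called under ATV-CD98hc. Within cluster 1, where 5.36% and 6.32% of all genes were called, the receptor list had 1 and 2 calls, the transcription factors 0 and 0, and the ion transport list 0 higher and 1 lower under ATV-TfR and 6 and 2 under ATV-CD98hc.

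By sex, 4 members were higher in cells called female. Cells with an Xist UMI and no UMI of Ddx3y, Uty, Eif2s3y or Kdm5d counted as female (550 choroid plexus cells) and the reverse as male (1421 cells), while 2512 cells had no call. Over 6 pools, Prlr averaged 1283 ± 374 CPM in female and 769 ± 146 CPM in male cells (SD, n = 6), higher in 6 of 6 pools, with a log2 difference of 0.65 (SE 0.09, adjusted p = 1.1e-05). Slc4a5 (277.6 ± 81.2 against 183.6 ± 38.6 CPM, log2 difference 0.52, adjusted p = 1.9e-04), Htr2c (2090 ± 831 against 1444 ± 468 CPM, 0.45, adjusted p = 9.8e-04) and Enpp2 (17732 ± 2322 against 14450 ± 1622 CPM, 0.23, adjusted p = 0.020) were also higher in 6 of 6 pools. The Enpp2 call was lost without any 1 of 4 pools (0.18 to 0.23). Ttr was higher in 6 of 6 pools too (210080 ± 13885 against 191430 ± 12067 CPM) but was not called (0.07, adjusted p = 0.46). The share of all genes higher in 6 of 6 pools was not counted. In this fit 34.6% of 11497 genes were called. As a check of the calls, the X-linked genes Kdm6a and Ddx3x, which escape X inactivation, were higher in female cells (1.36 and 0.53). X-linked Eif2s3x, which also escapes X inactivation and was part of the same check, was not called (0.08, adjusted p = 0.59). The check thus did not hold for every gene read. In cluster 1 alone Kdm6a was called (1.46) and Ddx3x was not (0.26, adjusted p = 0.18).

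Cluster membership moved with the sex call: 53.3% of cells called female, 25.9% of those called male and 2.99% of uncalled cells were in cluster 2, whose cells held more Xist and more UMIs. Within cluster 1, in 4 pools with enough cells, none of these 4 members was called (Prlr 0.10, Htr2c 0.01, Slc4a5 -0.00, Enpp2 -0.10), and Clic6 was lower in female cells (458.6 ± 82.1 against 595.0 ± 19.0 CPM, n = 4, log2 difference -0.46, adjusted p = 0.0072), where 21.2% of genes were called. Within cluster 2, in 6 pools, 0 of 8 members were called, where 0.168% of genes were called. Prlr stood at 1649 ± 199 CPM in female and 1341 ± 77.9 CPM in male cells of cluster 2, higher in 6 of 6 pools (0.29, adjusted p = 0.12), and Htr2c at 2982 ± 784 and 3473 ± 786 CPM (-0.24).

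**Figure D4:**
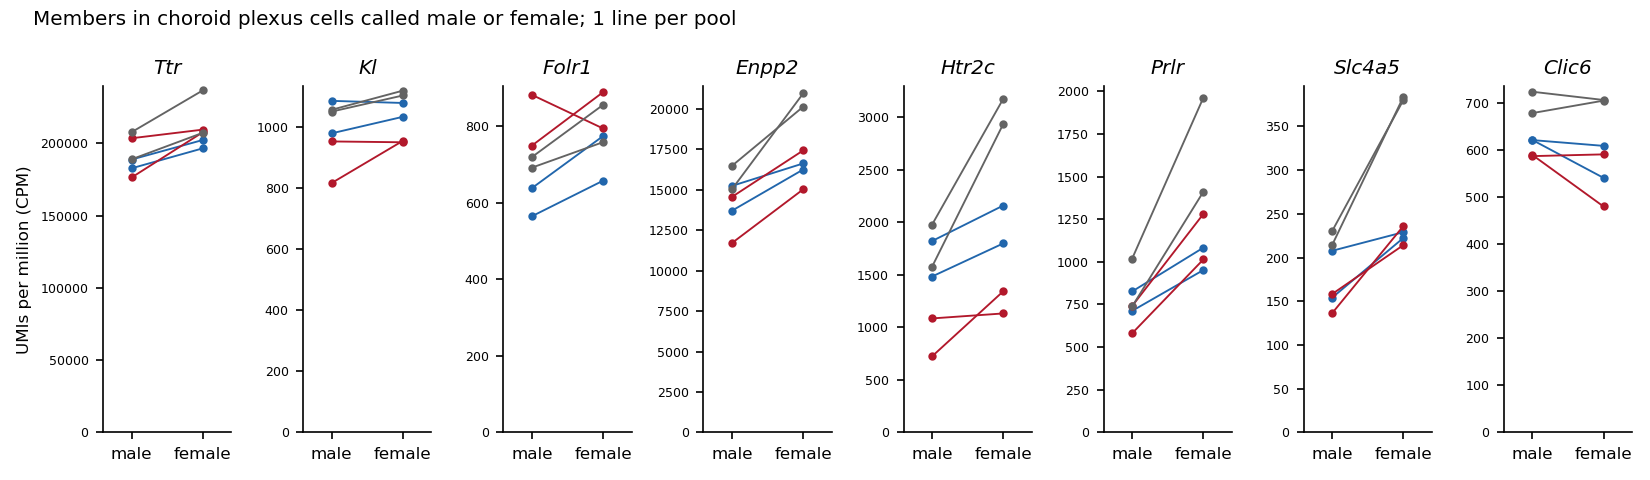
Level of 8 members (CPM, linear axes from 0) in choroid plexus cells called male and female, 1 line per pool over all bins, 6 pools; red is ATV-TfR, blue ATV-CD98hc and grey control IgG. Prlr, Slc4a5, Htr2c, Enpp2 and Ttr were higher in the female cells of 6 of 6 pools, Ttr without a call.

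Outside the choroid plexus, Ttr was found in every one of the other 15 named classes, at a lower level than in choroid plexus cells. It stood between 224 CPM in astrocyte-like and 4556 CPM in ependymal-like cells, and 41.9% to 60.3% of cells per class had a UMI of it (13.7% to 33.7% after thinning to 1000 UMIs), against 99.96% of choroid plexus cells. Whether these UMIs were made in the cells or came from free RNA was not tested, and no Ttr expression is read from them. Taking Ttr as the tracer, the UMIs of each other member that the same amount of choroid plexus RNA would bring were computed per library, and the observed UMIs were divided by them. In microglia-like cells this ratio was 1.00 for Kl (0.743 to 1.32, 95% exact Poisson interval, counting error only), 1.19 for Folr1, 1.22 for Prlr and 1.16 for Slc4a5. It was 1.39 there for Enpp2 (1.31 to 1.48), 1.49 for Htr2c (1.08 to 2.00) and 2.22 for Clic6 (1.75 to 2.79). In endothelial-like cells it was 0.975 for Folr1, 0.960 for Slc4a5 and 0.793 for Htr2c (0.727 to 0.864), and above 1 for Prlr (1.18, 1.08 to 1.29), Clic6 (1.36, 1.23 to 1.50), Kl (1.43, 1.33 to 1.54) and Enpp2 (3.02, 2.98 to 3.06, 21 of 21 libraries).

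The Enpp2 ratio had a lower bound above 1 in every other named class but the ependymal-like cells, the smallest at 1.31 (border macrophage-like, 12 of 21 libraries above, and neutrophil-like cells, 4 of 5). In T or NK cell-like cells, at 1.58, 3 of 6 libraries lay above. The expected UMIs count RNA of choroid plexus cells alone. Free RNA of other classes was not included, such as Enpp2 of oligodendrocyte-like cells (1980 CPM) or Clic6 of astrocyte-like cells (10.6 CPM). A ratio above 1 thus does not by itself show that a class makes the gene. The Prlr ratio was 2.21 in astrocyte-like (14 of 17 libraries above), 2.86 in oligodendrocyte-like (9 of 13), 3.11 in B cell-like (5 of 15), 1.66 in fibroblast-like (7 of 21) and 5.01 in smooth muscle-like cells (5 of 9). Slc4a5 was at 4.46 in oligodendrocyte-like (37 UMIs, 8 of 13 libraries above) and 4.33 in oligodendrocyte precursor-like cells (6 UMIs, 3 of 6). Clic6 was at 3.88 in neuron-like (18 UMIs, 8 of 11) and 3.35 in neutrophil-like cells (14 UMIs, 2 of 5). Ratios further above 1 among the 8 members detected in choroid plexus cells included the following. Enpp2 was at 1980 CPM in oligodendrocyte-like cells, with a UMI in 98.2% of them, 115 times the expected UMIs (13 of 13 libraries above). Fibroblast-like cells held 37.2 times the expected Kl (34.5 to 40.1, 21 of 21 libraries, 43.75 CPM) and 8.14 times the expected Enpp2. Neuron-like cells, few in number at 651, held 43.6 times the expected Htr2c (38.1 to 49.6, 10 of 11 libraries, 50.6 CPM) and 19.5 times the expected Prlr (15.7 to 24.0, 6 of 11 libraries). Clic6 was at 14.2 times the expectation in astrocyte-like cells (17 of 17 libraries, 10.6 CPM), and 1 astrocyte cluster of 20184 cells had 37.7 CPM and a UMI in 11.4% of cells. Slc4a5 reached 10.7 times the expectation in astrocyte-like cells (15 of 17 libraries), at 1.56 CPM, and 472 of its UMIs there lay in 1 cluster of 26734 cells, at 4.83 CPM.

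**Figure D5:**
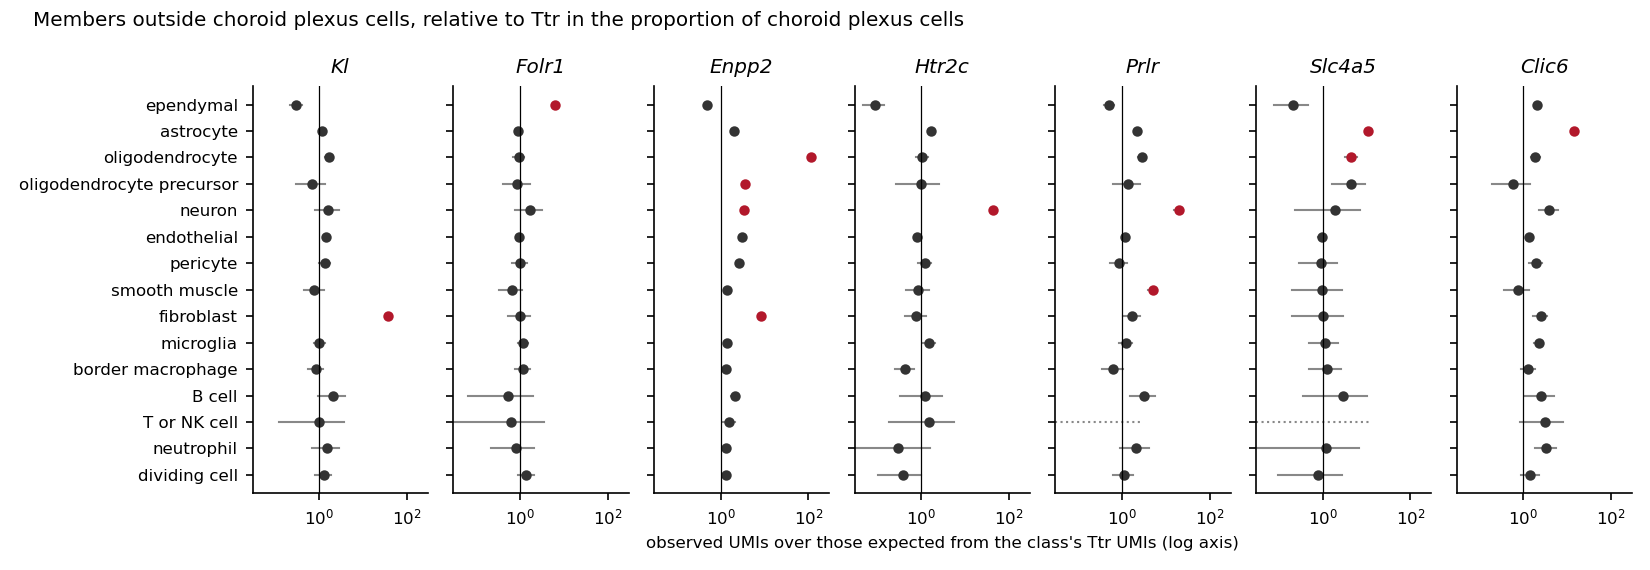
Observed UMIs of each member divided by those expected from the Ttr UMIs of the class (log axis), by cell class, with 95% exact Poisson intervals that cover counting error only; red points have a lower bound above 3 and dotted lines mark 0 UMIs. Enpp2 in oligodendrocyte-like, Htr2c in neuron-like, Kl in fibroblast-like and Folr1 in ependymal-like cells lay to the right of 1.

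Ependymal-like cells, which line the ventricles beside the choroid plexus, had their own pattern. Lrp2 was highest there, with 258 UMIs in 876 cells, 43.87 CPM (95% interval 38.7 to 49.6) and a UMI in 20.0% of cells. Its lowest of 15 ependymal libraries had 11.2 CPM, while the highest of the 23 choroid plexus libraries had 1.10 CPM. The other classes had at most 0.622 CPM of Lrp2. In astrocyte-like cells it had 59 UMIs in all, and some in 12 of the 17 libraries with enough such cells; with 4 UMIs in choroid plexus cells, its expected UMIs were under 1 in every class, so no ratio is read. Folr1 was at 116.1 CPM with a UMI in 37.6% of ependymal-like cells, 6.23 times the expectation (5.77 to 6.72, 15 of 15 libraries). Clic6 was at 2.01 times the expectation. Htr2c (0.0855 of the expected UMIs), Slc4a5 (0.215), Kl (0.300), Enpp2 (0.477) and Prlr (0.502) were below it. Ttr had 26791 UMIs in these 876 cells, in 55.6% of them. Relative to the members below the expectation, Ttr was thus higher here than in choroid plexus cells. The expected UMIs of every member in this class, also of Folr1 and Clic6, may therefore be set too high.

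Across the bins, a few members were called in the other classes. In astrocyte-like cells Clic6 was called higher in the medium and high bins of ATV-CD98hc: it stood at 8.71 ± 6.07 CPM (SD, n = 2) in the negative, 9.24 and 13.9 CPM in the low, 20.4 and 35.1 CPM in the medium and 80.6 and 89.4 CPM in the high bin. The low bin was not called (0.29, adjusted p = 0.78). The log2 change was 1.55 for the medium and 3.10 (SE 0.42, adjusted p = 7.4e-05) for the high bin, where 16.6% and 8.1% of genes were called; the high libraries held 390 astrocyte-like cells and 125 Clic6 UMIs. The mix of astrocyte clusters moved with these bins: cluster 8, the one with the most Clic6 over all libraries summed, held 16.9% and 16.8% of astrocyte-like cells in the negative, 26.9% and 18.8% in the low, 32.3% and 26.9% in the medium and 53.6% and 39.7% in the high bin. Within cluster 8 alone Clic6 stood at 50.6 and 24.2 CPM (negative), 42.0 and 31.2 CPM (low), 87.3 and 53.1 CPM (medium) and 125.4 and 91.3 CPM (high, 97 and 83 cells), values given with no test. Cluster 7 held 32.6% and 40.2% of astrocyte-like cells in the high bin. Clic6 stood there at 17.04 and 4.45 CPM (negative) and at 59.25 and 109.4 CPM (high, 11 and 22 UMIs), also with no test. The other astrocyte clusters had fewer than 20 cells in each high library. Under ATV-TfR Clic6 stood at 3.70 and 6.40 CPM (negative) and 8.49 and 18.2 CPM (high), a log2 change of 1.41 (adjusted p = 0.073, 18% of genes called), which was 1.43 and called with the pool as a block (adjusted p = 0.0020). No other member was called in astrocyte-like cells in the high bin of either antibody. In endothelial-like cells 0 members were called in the high bins, where 11.2% (ATV-TfR) and 6.89% (ATV-CD98hc) of genes were called (with the pool as a block, Ttr was called under ATV-TfR, at 0.84). The median log2 change of the 7 members tested there was 6.63 under ATV-TfR and 0.18 under ATV-CD98hc. The ATV-TfR median was also 7.02 in the low and 7.56 in the medium bin, against the same negative libraries. Those negative libraries had a median of -5.91 against the 1 negative library of control IgG. Medians of this size follow very low counts in the negative libraries, so 6.63 is read neither as the size of a rise nor as a level that stayed. Ttr was higher in the low bin of ATV-TfR (316.2 and 694.8 CPM against 110.5 and 172.1 CPM, log2 change 1.79, adjusted p = 0.020, 1.78% of genes called). In microglia-like cells Ttr was lower in the high bin of ATV-CD98hc (120.4 and 190.2 CPM against 334.2 and 378.9 CPM, log2 change -1.05, adjusted p = 0.040, 5.58% called), a call lost without either of its pools. Enpp2 in microglia-like cells was lower than in the negative bin in the low bin of ATV-TfR (14.2 and 15.6 against 30.2 and 31.3 CPM, log2 change -0.98, 11.1% called), its medium bin (-1.73, 13.8% called, on 5 UMIs) and the low bin of ATV-CD98hc (-0.97, 8.87% called). Between antibodies, 3 members were higher in endothelial-like cells in the low bin of ATV-TfR than of control IgG (Kl 1.90, Ttr 1.28 and Enpp2 0.97, 17.9% called). In astrocyte-like cells, ATV-TfR was lower than ATV-CD98hc for Clic6 (-1.37), Ttr (-0.87) and Enpp2 (-0.81) in the medium bins, where 20.6% were called, and for Clic6 (-2.60) and Enpp2 (-0.96) in the high bins, where 12.1% were called. In microglia-like cells Enpp2 was lower in the medium bin of ATV-TfR than of ATV-CD98hc (-2.08, 8.31% called). Over all cells outside the choroid plexus, Ttr also moved between libraries. It stood at 396 and 222 CPM in the negative and 146 and 244 CPM in the high libraries of ATV-CD98hc. In the medium libraries it was 250 and 261 CPM (ATV-TfR) against 464 and 372 CPM (ATV-CD98hc). For ATV-TfR it was 260 and 536 CPM in the negative and 206 and 316 CPM in the low libraries. Control IgG had the widest range: 140 CPM in the 1 negative, 575 and 503 CPM in the low, 1279 and 779 CPM in the medium and 35.6 and 1696 CPM in the high libraries. In the low bins Ttr over all these cells was thus lower under ATV-TfR than under control IgG, the reverse of the call in endothelial-like cells. The part of this level in the calls of Ttr and Enpp2 was not tested.

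The genes most like each member over the 23 choroid plexus sums were found among 6200 genes of at least 20 CPM, by Pearson's r of log2(CPM + 1). These values describe libraries that share the cluster mix and depth, and carry no test. Htr2c was followed by Cgnl1 (r = 0.990), Pcnx (0.988) and Frmpd4 (0.987). Slc4a5 was followed by Slc4a10 (0.984), Tmem72 (0.983) and Itpr1 (0.978), and Prlr by Slc31a1 (0.958), Elovl7 (0.953) and Steap2 (0.946). Enpp2 was nearest to Canx (0.970), Slc13a4 (0.958) and Slc16a9 (0.950). Kl was nearest to Cd164 (0.931), Enpp2 (0.921) and Zzz3 (0.899), and Ttr to Slc31a1 (0.905), Reep5 (0.894) and Prlr (0.875). Folr1 (Lbp 0.864, Atp6v0e 0.856, Aga 0.841) and Clic6 (Ipo8 0.846, Ap3d1 0.818, Vat1l 0.814) had less close neighbours. Between members, Htr2c and Slc4a5 were closest (0.963), followed by Enpp2 and Prlr (0.923), and Clic6 and Folr1 were least alike (-0.04).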

How the data were processed

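UMI counts per gene and cell barcode came from 23 droplet libraries, deposited by the authors as whole-number count matrices. Cell Ranger 7.1.0, Seurat 4 and 5, and the build mm10 are named in the submitters' processing notes, with no role given there. The 265025 barcodes held 1129743851 UMIs. A minimum of 500 genes and 800 UMIs, and a mitochondrial share of 10% or less, left 249715 cells. Scrublet scores removed 15691 of them as doublets (0.690% to 12.2% per library), leaving 234024. In 8 libraries percentile 94 of the score was the cut, since the automatic threshold marked under 0.5% or over 25% of cells.

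Cells were clustered with scanpy 1.11.5 (2000 variable genes without the 9 members, Tfrc, Slc3a2, sex-linked, mitochondrial and ribosomal genes; 50 components, 15 neighbours, Leiden resolution 1, no integration). Of 37 clusters 34 were named from marker lists, giving 16 classes, and 5091 cells (2.18%) stayed unnamed. A marker counted where at least 5% of a cluster's cells had it, at no less than 0.25 of the highest cluster. A name needed 3 markers and at least 0.5 of its list. The rule for clusters that met several lists was set after the clusters were seen.

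UMIs were summed per library and class for libraries with at least 20 cells. They were tested with edgeR 4.0.16 (quasi-likelihood test, TMM factors, filterByExpr, two-sided, R 4.3.3) in 1 fit over 12 groups, with Benjamini-Hochberg adjustment over all genes of a contrast and calls at an adjusted p under 0.05. Lrp2 was below the filter on low counts. The sex fit had the pool as a term. The members and gene lists were chosen with earlier results of these data known. Fits within 1 cluster and differences against control IgG were added after the bin contrasts were seen. Named beside the members were the called genes of each list, at most 4 by p, and the 3 genes most like each member. Other choices tried were DESeq2 1.42.0, RLE factors, other filters on counts, cells and doublets, a marker gate, the pool as a block, and leaving out each pool.

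The bins of a pool come from the same animals, so the pool pairs them. The correlation of same-pool deviations from the group means over 3001 genes was -0.09 to 0.39 for ATV-TfR, -0.22 to 0.30 for ATV-CD98hc and 0.16 to 0.38 for control IgG. The main bin fits had no pool term, so the bins of a pool were treated as independent. Their p-values rest on a spread estimated over all 12 groups, not on that of the 2 pools of 1 antibody. In the sex fit the pool was a term, so its p-values measure how the difference between female and male cells varied over pools. Poisson intervals cover counting error only. Positions are from GENCODE M21 on GRCm38. The tests were tried on simulated counts first. The list of retinol and thyroid hormone carriage is not reported here.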

Additional observations from a re-analysis of the deposited data

Results flagged for a closer look

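The control IgG side of the following 9 differences rests on 1 negative library, whose own spread cannot be measured. On the assumption that it varies like the other groups, the change from the negative bin was called different between an ATV antibody and control IgG for 3 members, by edgeR's quasi-likelihood test of the difference itself. In the low bin the log2 change under ATV-TfR minus that under control IgG was -3.06 for Htr2c (adjusted p = 5.1e-07), -1.39 for Prlr (adjusted p = 0.0027) and -1.34 for Slc4a5 (adjusted p = 0.0016), where 7.16% of genes were called. In the medium bin it was -2.38 for Htr2c (adjusted p = 3.5e-05), -1.10 for Prlr (adjusted p = 0.024) and -0.94 for Slc4a5 (adjusted p = 0.040), where 7.11% were called. For ATV-CD98hc the low-bin differences were -2.92 for Htr2c (adjusted p = 1.2e-06) and -1.02 for Slc4a5 (adjusted p = 0.028), where 7.33% were called, and the medium-bin difference was -2.30 for Htr2c (adjusted p = 1.5e-04), where 5.4% were called. In cluster 1 alone 0 of these 9 differences were called: the Htr2c differences of ATV-CD98hc turned direction there, to 0.31 (low bin) and 0.62 (medium bin), and those of ATV-TfR were -0.22 and -0.21. Another member, Enpp2, was called there in the opposite direction, higher under ATV-CD98hc in the medium-bin difference (1.09, adjusted p = 0.0082, 4.51% of genes called) and in the high-bin difference (1.37, adjusted p = 0.012, 1.25% called), the latter with 1 control IgG library in each bin. In cells without endothelial UMIs, 5 of the 9 were not called: Prlr (-0.87) and Slc4a5 (-0.998) of ATV-TfR in the low bin and Slc4a5 (-0.999) in the medium bin, and Htr2c (-1.296) and Slc4a5 (-0.44) of ATV-CD98hc in the low bin. The Prlr and Slc4a5 differences of ATV-TfR in the medium bin were lost without ATV-TfR replicate 2 (-0.68 and -0.58) and without control IgG replicate 1 (-0.93 and -0.90), and the Slc4a5 difference of ATV-CD98hc in the low bin was lost without either ATV-CD98hc pool or control IgG replicate 1, with values of -1.065 to -1.003 when 1 pool was left out. Over all alternatives, 12 member values of the ATV-TfR medium-bin difference lost a call, not all of them listed here.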

How the results depend on the processing

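Over the alternatives, 94 values of the main counts were within 1.5 times of those reported and 38 were not. Of the values for single members, 2567 kept direction and side of the threshold, 84 lost and 53 gained a call, and 9 reversed. Reversed in cluster 1 alone were Htr2c in the low minus negative contrast of ATV-CD98hc (0.19; 0.28 in cells without endothelial UMIs) and of control IgG (-0.12), Htr2c in the high minus negative contrast of control IgG (-0.092), the Htr2c differences of ATV-CD98hc from control IgG (0.31 in the low and 0.62 in the medium bin), and the sex differences of Enpp2 (-0.10) and Slc4a5 (-0.0024). The sex difference of Htr2c reversed in cluster 2 alone (-0.24). The cause was not tested.

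High minus negative gave 2929 calls for ATV-TfR (623 to 3173 with 1 pool left out, 602 in cluster 1; 623 without ATV-TfR replicate 1 and 963 without replicate 2) and 3860 for ATV-CD98hc (1839 to 3886, and 710 in cluster 1). Their difference gave 1 call (0 to 3 with 1 pool left out), 2 by DESeq2, 28 with no filter, 4 with the replicate block, 5 by the marker gate, 7 under the stricter doublet rule, and 0 with at least 50 cells, at most 5% mitochondrial UMIs or cluster 1. The negative bins gave 6 calls (0 to 35), 166 with no filter, 40 with the replicate block (which takes the spread between pools out of the error of a comparison between pools, so its calls here are not used), 19 in cells without endothelial UMIs, 16 by the marker gate, 11 under the stricter doublet rule, 14 with at least 50 cells, 13 with at most 5% mitochondrial UMIs and 19 in cluster 1. The sex contrast gave 3975 calls (2859 to 4382), 1858 with no replicate block, 2433 by DESeq2, 2034 in cluster 1 and 16 in cluster 2. Without the pool term the sex calls of Enpp2 (0.25, adjusted p = 0.11) and Htr2c (0.50, adjusted p = 0.17) were lost.

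Of members called in other classes between high and negative bins, endothelial cells under ATV-TfR gave 0 (0 to 0 with 1 pool left out, 1 with the replicate block), astrocytes under ATV-TfR 0 (0 to 1; 1 with the block) and under ATV-CD98hc 1 (1 to 1), and microglia under ATV-CD98hc 1 (0 to 1; 0 under the stricter doublet rule). The share of called genes that were higher was 43.3% for ATV-TfR (55.6% with the stricter filter, 73.9% in cluster 1) and 40.3% for ATV-CD98hc (50.6% with the stricter filter). The high bins of the ATV antibodies in cells without endothelial UMIs, high minus negative in cluster 2, sex in the negative bin alone and the microglia contrast of ATV-TfR had too few cells and were not run. Depth limits Lrp2 and the members at low level in other classes.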
